A study of Mus musculus with 12 samples.

Results

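Epidermal barrier lipid genes make, move and modify the ceramides that keep water inside the skin. The 9 genes described here were chosen by symbol (Alox12b, Aloxe3, Cers3, Elovl4, Abca12, Smpd1, Pnpla1, Abhd5 and Slc27a4), and all 9 were found among the 25070 rows of the deposited table. RNA sequencing was done on mouse skin biopsies taken 4 days after tick attachment, in a study of the response to repeated tick exposure. The 12 libraries came from unbitten naive skin (n = 2) and from bitten skin of mice at a first exposure (n = 3), labelled ticks 2x (n = 3), labelled ticks 3x (n = 3) or labelled saliva immune (n = 1). Whether 2x and 3x include the infestation that was sampled, and how saliva immunity was raised, is not stated. The sources used here name no strain, sex, age or tick species. Nor do they say whether each library came from its own animal, so p-values measure only the spread between these samples, which may be technical.

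The outer epidermis is sealed by stacked lipid layers in which ceramides with ultra-long, omega-hydroxylated acyl chains are esterified to linoleic acid. These acylceramides are built in suprabasal keratinocytes, packed as glucosylceramides into lamellar granules, released between the cells and oxidised before they are bound to the cornified envelope. Inherited loss of most of these 9 genes in humans or mice gives ichthyosis or a leaky skin barrier.

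The values are CPM, the reads of a gene per 1000000 reads of its library. Estimated depth lay between 12500000 and 29800000 reads, so the lowest member value in any library, Alox12b at 15.9 CPM in first-exposure replicate 2, stood for about 286 reads. Counting error was therefore small for every member. All libraries held epidermis: the mean of 17 suprabasal keratinocyte genes lay between 7.34 and 8.76 on the log2(CPM + 1) scale. The libraries differed far more in hair follicle. They also differed in skeletal muscle (mean of 11 genes 7.30 to 11.41) and in wound keratinocyte genes (mean of 9 genes 3.41 to 6.635). The mean of 21 hair keratin and follicle genes was 7.47 and 0.96 in naive replicates 1 and 2, and 9.04, 9.35 and 1.61 in first-exposure replicates 1, 2 and 3. It was 8.86, 2.60 and 0.73 in 2x, 5.03, 6.60 and 0.77 in 3x and 0.71 in the saliva immune library. In 2x replicate 3, 3x replicate 3 and the saliva immune library, 16, 17 and 16 of the 21 genes were under 1 CPM. Titles carry the number 4 for first exposure and saliva immune skin and the number 6 for the other 8 libraries, so a difference from first exposure and a difference between these title series cannot be told apart. In bulk tissue, fewer cells of a type and less RNA per cell cannot be told apart either.

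All members were well expressed in every library. Per kilobase of exon (GENCODE M21 models), Elovl4 had the highest mean level over the 12 libraries, at 163 CPM per kb, with a range of 69.7 to 333. Smpd1 (29.5), Slc27a4 (27.9), Alox12b (26.3), Cers3 (20.7) and Abhd5 (17.2 CPM per kb) followed, and Abca12 (13.3), Pnpla1 (10.7) and Aloxe3 (8.45 CPM per kb) were lowest. The lowest Elovl4 library was above the highest Smpd1 library (43.7 CPM per kb). Below Elovl4, the ranges over the libraries of each pair of neighbours in this order overlapped. Alox12b varied most, 6.58-fold between its lowest and highest library, and Aloxe3 5.08-fold. Abhd5 varied least, 1.57-fold, then Cers3 (1.95-fold) and Smpd1 (1.99-fold).

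Alox12b and Aloxe3 encode the epidermal lipoxygenases 12R-LOX and eLOX3, which act in sequence on the linoleate of acylceramides. They lie next to each other on mouse chromosome 11 (RefSeq, GRCm38.p6), Aloxe3 from 69125417 to 69149115 and Alox12b from 69157072 to 69169791, with 7956 bases between them. Alox12b was at 38.4 and 74.8 CPM in the naive libraries, 26.9, 15.9 and 99.3 CPM at first exposure, 40.3, 94.7 and 52.0 CPM in 2x and 105, 69.9 and 72.4 CPM in 3x. The saliva immune library had 77.5 CPM. First exposure held both the lowest libraries and one of the highest, and every pair of replicated groups overlapped. Aloxe3 was at 24.3 and 50.2 CPM in naive skin, 33.2, 18.4 and 91.1 CPM at first exposure, 24.8, 66.9 and 50.1 CPM in 2x, 93.3, 57.0 and 62.9 CPM in 3x and 76.1 CPM in saliva immune skin. All 3 Aloxe3 values in 3x were above both naive values. Against naive skin the log2 fold change of Aloxe3 in 3x was 0.97 (SE 0.64, limma adjusted p = 0.825), with a 95% interval from -0.46 to 2.40. Alox12b differed by 0.59 in the same comparison (SE 0.67, limma adjusted p = 0.912). With the mean of the suprabasal keratinocyte genes as a covariate these were 0.39 for Aloxe3 and -0.0831 for Alox12b (limma adjusted p = 0.986 and 0.998), so the sign for Alox12b turned.

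The largest difference of Alox12b between groups was 3x against first exposure, 82.4 ± 19.4 (SD, n = 3) against 47.4 ± 45.3 CPM (SD, n = 3). Its log2 fold change was 1.18 (SE 0.60, limma adjusted p = 0.319). First-exposure replicate 3, one of the libraries nearly without hair follicle, had 99.3 CPM, while the other first-exposure libraries, with the most follicle RNA, had 26.9 and 15.9 CPM. Without replicate 3 the log2 fold change was 1.91 and passed the threshold (limma adjusted p = 0.0411). That fit called 1372 genes over all, against 0 with every library, and it compared 3x with 2 follicle-rich libraries of the other title series. With follicle content (the list mean) as a covariate, and all libraries kept, the log2 fold change was 0.80 (limma adjusted p = 0.388). With the suprabasal keratinocyte mean as the covariate it was 0.47 (limma adjusted p = 0.668).

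**Figure D1:**
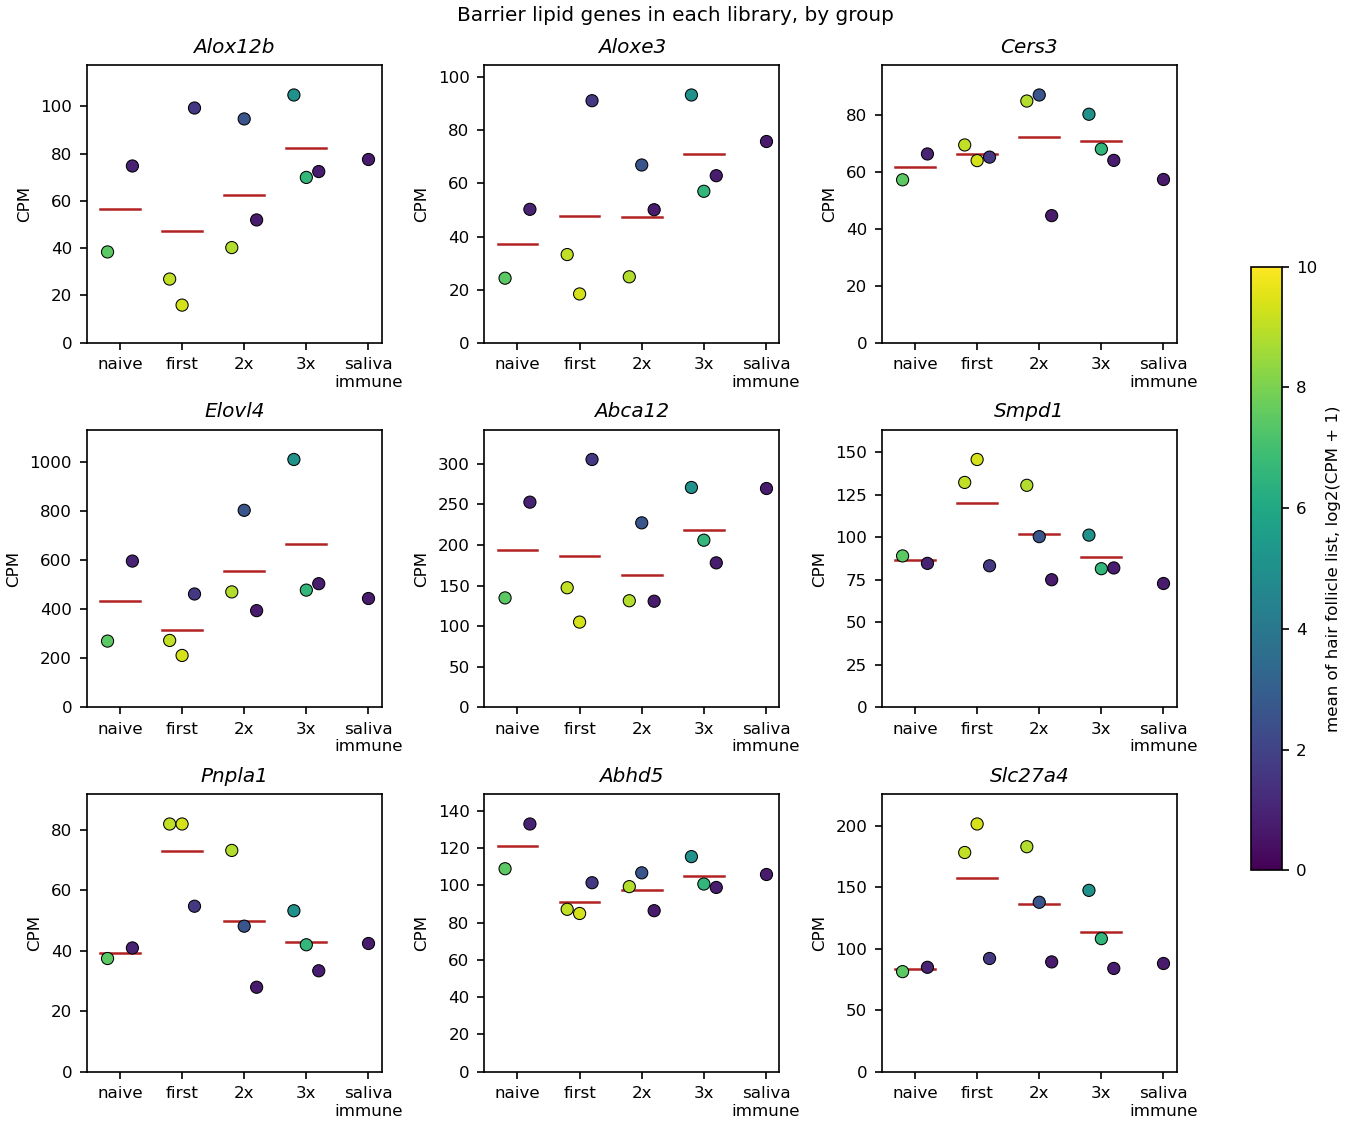
Level of each barrier lipid gene (CPM, linear axis from 0) in the 12 libraries by group, with a red line at the mean of groups with 2 or 3 libraries; point colour gives the mean of the hair follicle list on the log2(CPM + 1) scale. For Alox12b and Aloxe3 the yellow, follicle-rich points are low, and for Smpd1, Pnpla1 and Slc27a4 they are high.

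Elovl4 and Cers3 supply the ultra-long chains. Elovl4 (chromosome 9, 83778692 to 83806305) elongates very long fatty acids, and ceramide synthase 3, the product of Cers3 (chromosome 7, 66733118 to 66823692), joins them to a sphingoid base. Elovl4 was at 270 and 595 CPM in naive skin, 272, 211 and 461 CPM at first exposure, 470, 802 and 394 CPM in 2x, 1009, 477 and 503 CPM in 3x and 444 CPM in saliva immune skin. Every 3x library lay above every first-exposure library, with a log2 fold change of 1.06 (SE 0.45, limma adjusted p = 0.265), and both groups overlapped naive skin. With the suprabasal keratinocyte covariate this log2 fold change was 0.47 (limma adjusted p = 0.461). Cers3 was at 57.4 and 66.5 CPM in naive skin, 69.6, 64.1 and 65.3 CPM at first exposure, 85.1, 87.2 and 44.8 CPM in 2x, 80.4, 68.2 and 64.2 CPM in 3x and 57.7 CPM in saliva immune skin. Its highest and lowest values both lay in the 2x group, and the first-exposure libraries, which had very different follicle content, were close to each other. The 95% interval of the log2 fold change between first exposure and naive skin ran from -0.49 to 0.69 for Cers3.

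Slc27a4, Pnpla1 and Abhd5 handle fatty acids on the way to acylceramide. Slc27a4 (chromosome 2, 29802634 to 29817522) encodes the fatty acid transporter and acyl-CoA synthetase FATP4. It was at 81.5 and 85.0 CPM in naive skin, 178, 202 and 92.2 CPM at first exposure, 183, 138 and 89.4 CPM in 2x, 148, 108 and 84.1 CPM in 3x and 88.1 CPM in saliva immune skin. All first-exposure and all 2x libraries were above both naive libraries, by log2 fold changes of 0.83 (SE 0.39, limma adjusted p = 0.321) and 0.65 (SE 0.39, limma adjusted p = 0.566). In each of the 3 replicated bitten groups the lowest Slc27a4 value was in the library with the least follicle RNA, replicate 3, and these values were close to those of naive and saliva immune skin. Replicate 3 of each also had the highest mean of the skeletal muscle genes. That mean was 10.49 against 9.93 and 10.18 at first exposure, and 10.89 against 7.30 and 7.57 in 2x. In 3x it was 11.41 against 8.38 and 8.96. Naive replicate 1 had low Slc27a4 with a follicle mean of 7.47. With the follicle list mean as a covariate, the first-exposure log2 fold change against naive skin was 0.60 (limma adjusted p = 0.273). That of 2x was 0.665 (limma adjusted p = 0.264). The part of follicle or muscle in the Slc27a4 values was not itself tested.

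Pnpla1 (chromosome 17, 28858286 to 28890308) encodes the transacylase that attaches linoleate to omega-hydroxyceramide. It was at 37.5 and 41.0 CPM in naive skin, 82.0, 82.0 and 54.8 CPM at first exposure, 73.3, 48.2 and 28.0 CPM in 2x, 53.3, 42.0 and 33.4 CPM in 3x and 42.6 CPM in saliva immune skin. The first-exposure libraries were all above both the naive and the 3x libraries. The log2 fold change was 0.86 against naive skin (SE 0.36, limma adjusted p = 0.287), and that of 3x against first exposure was -0.75 (SE 0.33, limma adjusted p = 0.273). With the follicle list mean in the fit as a covariate these were 0.66 and -0.55 (limma adjusted p = 0.247 and 0.29). Abhd5 (chromosome 9, 122351616 to 122381524) encodes CGI-58, a co-activator of PNPLA1 and of adipose triglyceride lipase. It was the only member with a fold change below 0 in each of first exposure, 2x and 3x against naive skin. Its level was 109 and 133 CPM in naive skin, 87.1, 84.9 and 101 CPM at first exposure, 99.3, 107 and 86.4 CPM in 2x, 115, 101 and 98.9 CPM in 3x and 106 CPM in saliva immune skin. The difference of the bitten group means from naive skin was -0.30 on the log2 scale (SE 0.13, limma adjusted p = 0.432), and that of first exposure alone was -0.40 (SE 0.15, limma adjusted p = 0.236). The mean of 11 adipocyte genes was 8.03 and 8.33 in naive skin, 6.39 to 7.20 at first exposure, 7.44 to 7.96 in 2x and 7.55 to 8.48 in 3x, and their part in the Abhd5 difference was not tested.

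Abca12 and Smpd1 act at the lamellar granule. Abca12 (chromosome 1, 71243090 to 71414910) encodes the transporter that loads glucosylceramide into it. It was at 135 and 253 CPM in naive skin, 147, 105 and 305 CPM at first exposure, 131, 227 and 131 CPM in 2x, 271, 206 and 178 CPM in 3x and 270 CPM in saliva immune skin. All replicated groups overlapped, and no log2 fold change exceeded 0.45 (3x against 2x, SE 0.41, limma adjusted p = 0.914). Smpd1 (chromosome 7, 105554360 to 105558389) encodes acid sphingomyelinase, which makes ceramide from sphingomyelin. It was at 89.1 and 84.7 CPM in naive skin, 132, 146 and 83.2 CPM at first exposure, 131, 100 and 75.0 CPM in 2x, 101, 81.5 and 82.0 CPM in 3x and 73.2 CPM in saliva immune skin. Its 3 highest values were those of the 3 libraries richest in follicle. Against naive skin its log2 fold change was 0.43 after first exposure (SE 0.27, limma adjusted p = 0.455) and 0.02 in 3x (SE 0.27, limma adjusted p = 0.997). RefSeq lists a long non-coding gene overlapping Abca12 and another overlapping Smpd1, and the sources name no strand setting for the counting, so reads of these pairs could not be separated.

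Across the 7 comparisons, limma called 0 of the 9 members at an adjusted p below 0.05. The same rule called 0.0117% of the 17064 genes tested for first exposure against naive skin, 0.0352% for 2x, 0.00586% for 3x and 0.041% for bitten against naive skin, and 0% for 2x against first exposure, 3x against first exposure and 3x against 2x. At such background shares a count of 0 among 9 genes says nothing particular about them. At an unadjusted p below 0.05, Pnpla1 was higher and Abhd5 lower after first exposure than in naive skin (1 of 9 each, against 10.1% and 6.32% of all genes). Abhd5 was lower in bitten than in naive skin (1 of 9, against 4.74%). In 3x against first exposure Elovl4 was higher and Pnpla1 lower (1 of 9 each, against 8.2% and 9.58%). No member had such a p in 2x against naive skin (5.71% higher and 5.23% lower among all genes), 3x against naive skin (4.83% and 2.12%), 2x against first exposure (6.49% and 9.39%) or 3x against 2x (3.56% and 1.58%).

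Counts of members whose groups did not overlap were near the shares over all genes. After first exposure, Pnpla1 and Slc27a4 lay wholly above naive skin (2 of 9, against 21% of all genes) and Abhd5 wholly below (1 of 9, against 14%). In 2x, Slc27a4 lay above (1 of 9, against 14.7%) and Abhd5 below (1 of 9, against 12.8%). In 3x, Aloxe3 lay above naive skin (1 of 9, against 15.5%) and 0 lay below (against 9.58%). Elovl4 lay above and Pnpla1 below in 3x against first exposure (1 of 9 each, against 9.06% and 12.2%). No member was wholly higher or lower in bitten than in naive skin (against 4.02% and 3.31%), in 2x than at first exposure (6.9% and 10.8%) or in 3x than in 2x (7.3% and 4.41%).

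As a list, the members had a median slightly above 0 in every comparison. Their median log2 fold change was 0.10 for first exposure against naive skin, 0.19 for 2x, 0.22 for 3x and 0.20 for bitten against naive skin. The medians over all genes tested were 0.08, 0.01, 0.02 and 0.06. Higher than in naive skin were 5 of 9 members after first exposure, 7 in 2x and 8 in 3x, against 57.9%, 51.9% and 53.2% of all genes. These comparisons share the 2 naive libraries. Without naive replicate 1 the medians of first exposure and 2x were -0.38 and -0.17, that of 3x was 0.07 and that of bitten skin -0.04, so that library decided the sign in 3 of the 4. Without first-exposure replicate 3 the first of them was -0.48. Between bitten groups the medians were 0.06 for 2x and 0.20 for 3x against first exposure, and 0.11 for 3x against 2x, where all genes tested had -0.08, -0.04 and 0.03. Without 2x replicate 2 the first was -0.12, and without 3x replicate 1 the last was -0.07.

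**Figure D2:**
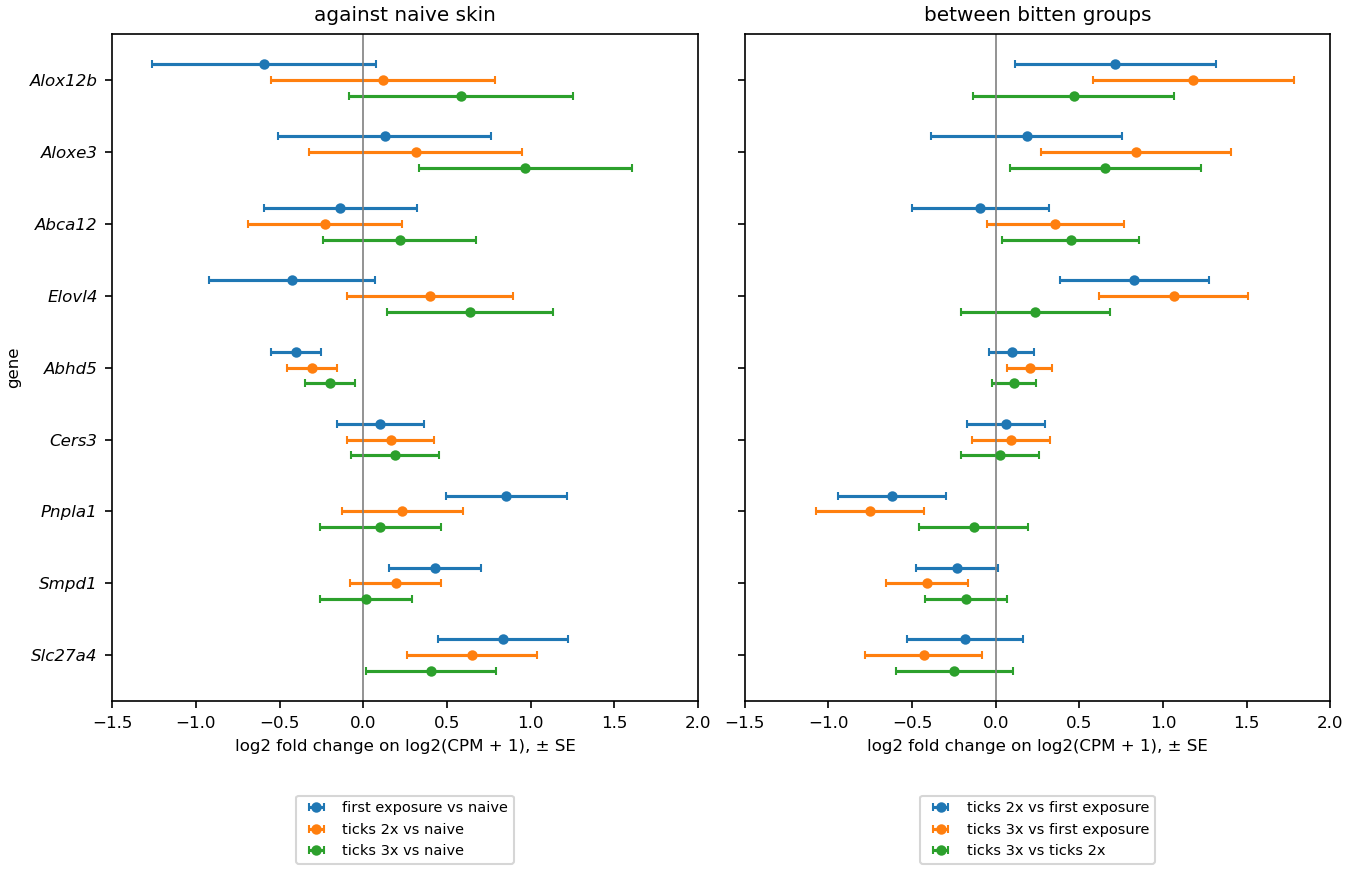
Log2 fold changes of the 9 members on the log2(CPM + 1) scale with limma's standard error, against naive skin (left) and between bitten groups (right). None passed the adjusted threshold; Abhd5 is left of 0 in all 3 comparisons with naive skin, and Elovl4 and Alox12b lie farthest to the right in 3x against first exposure.

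The members did not vary as 1 block. In 4 of 4 replicated groups the library with the most hair follicle RNA had the lowest Alox12b and the lowest Aloxe3, and in 3 of 4 the lowest Elovl4. Of all genes tested, 3.45% were lowest there in 4 groups and 18.6% in at least 3. Smpd1 was highest in that library in 3 of 4 groups, as 25.3% of all genes were in at least 3, and lowest in 1, the 3x group. Pnpla1 and Slc27a4 were highest there in 2 of 4 groups, as 52.3% of all genes were in at least 2, and lowest in 1, naive skin. First-exposure replicates 1 and 2 and 2x replicate 1 had the 3 highest follicle means. Pnpla1 lay between 73.3 and 82.0 CPM in these 3 and between 28.0 and 54.8 CPM in the other 9 libraries. Smpd1 lay between 131 and 146 against 73.2 to 101 CPM, and Slc27a4 between 178 and 202 against 81.5 to 148 CPM. Thus 3 of 9 members were wholly higher in these libraries, against 14.7% of all genes tested, and 0 of 9 were wholly lower, against 6.96%. Alox12b overlapped, at 15.9 to 40.3 CPM in the 3 libraries and 38.4 to 105 CPM in the other 9, where only naive replicate 1, the next in follicle content, lay within the lower range. Melanocyte genes moved with follicle content too: the mean of 5 of them reached 6.67 to 8.27 in these 3 libraries and was at most 4.88 in the others. Keratinocyte genes were mixed. Krt10, the suprabasal keratin gene, was at 1378 to 2567 CPM in the 3 libraries and 3410 to 9099 CPM in the other 9. Krt5, its basal counterpart, overlapped, at 1660 to 2558 against 2068 to 4846 CPM. The suprabasal list mean overlapped too, at 7.34 to 7.90 against 7.49 to 8.76. Krt17, the most abundant of the wound keratinocyte genes, was higher in the 3 libraries, at 1046 to 1582 against 297 to 634 CPM. The wound keratinocyte list mean, however, overlapped, at 4.72 to 5.09 against 3.41 to 6.635. The fits with the follicle or suprabasal mean as a covariate gave differences between groups only. The part of follicle cells, melanocytes or the keratinocyte share in the members' values was not itself tested.

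**Figure D3:**
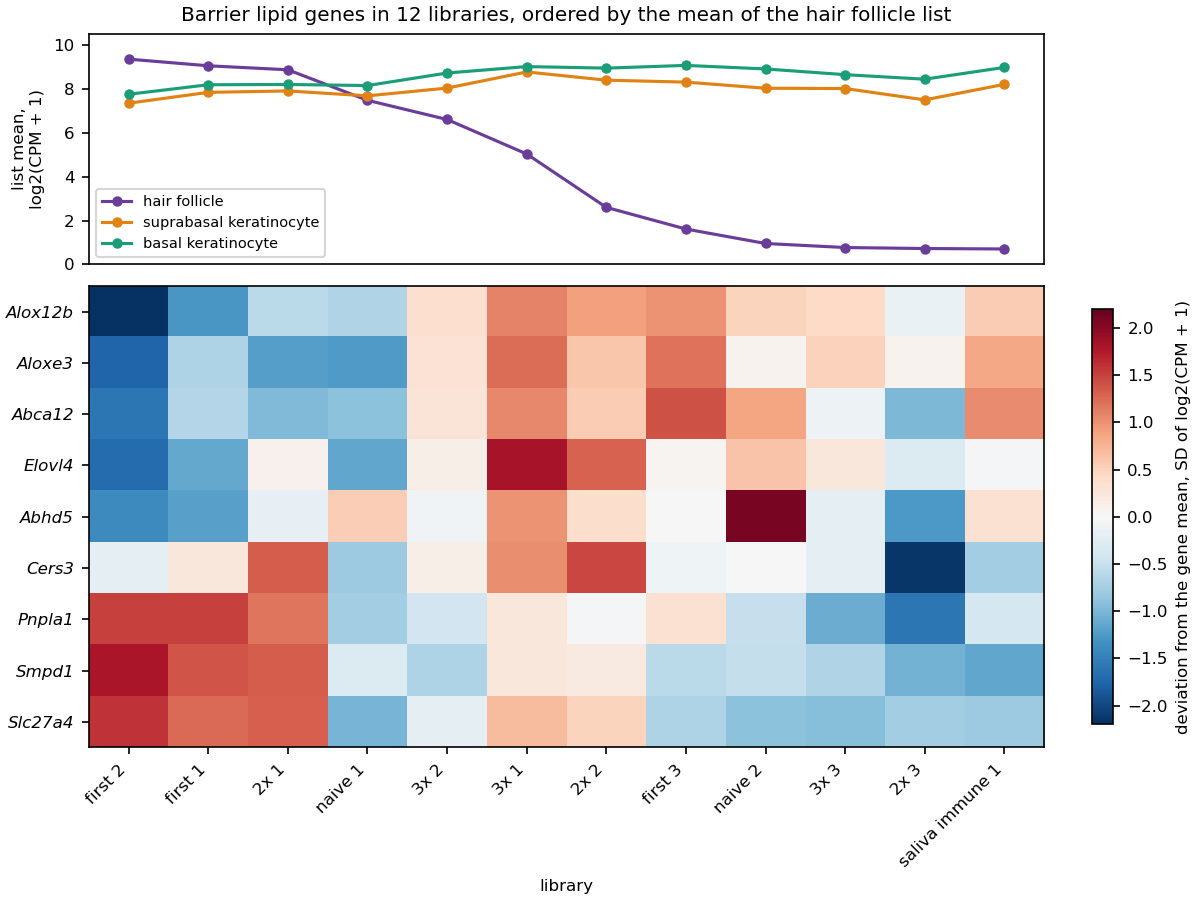
Libraries from left to right by falling mean of the hair follicle list; the upper lines give list means on the log2(CPM + 1) scale and the colours below give each gene's deviation from its own mean over the 12 libraries in SD. Alox12b, Aloxe3 and Abca12 are blue in the follicle-rich libraries at the left, and Pnpla1, Smpd1 and Slc27a4 are red there; the basal keratinocyte mean is 7.75 to 8.19 in these 3 libraries and 8.14 to 9.06 in the other 9.

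Over the 12 libraries Alox12b, Aloxe3 and Abca12 ran together, with Pearson's r of log2(CPM + 1) of 0.92, 0.88 and 0.89 for the 3 pairs, and Elovl4 followed Alox12b (r = 0.86). Smpd1, Pnpla1 and Slc27a4 formed the other set, with r of 0.89, 0.93 and 0.88. Smpd1 ran against Alox12b (r = -0.70, Spearman's rho -0.39). These values describe libraries that fall apart by follicle content. Within the 9 libraries other than the 3 richest in follicle, the first set stayed positively related. Its pairs without Elovl4, in the order above, had r of 0.93, 0.88 and 0.78. Elovl4 had r of 0.83 with Alox12b, 0.69 with Aloxe3 and 0.60 with Abca12. In the other set the 3 pairs, in the order above, had r of 0.57, 0.75 and 0.59. Pnpla1, however, then went with Abca12 (r = 0.85, against -0.22 over the 12) and with Alox12b (0.75, against -0.52), and Slc27a4 with Elovl4 (0.83, against -0.14). Over these 9 libraries no pair of members had an r below -0.02 (Aloxe3 and Abhd5), so the opposition of the 2 sets rested on the 3 follicle-rich libraries.

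**Figure D4:**
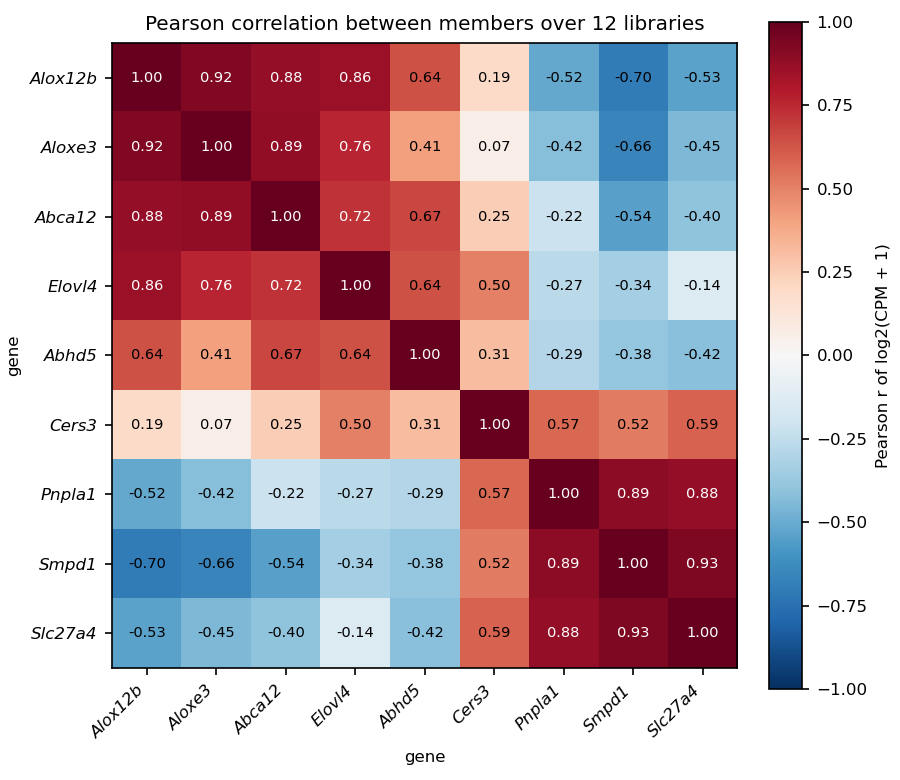
Pearson's r of log2(CPM + 1) between members over the 12 libraries, printed in each square. The upper left block holds Alox12b, Aloxe3, Abca12 and Elovl4 (0.72 to 0.92) and the lower right block Pnpla1, Smpd1 and Slc27a4 (0.88 to 0.93), with values of -0.14 to -0.70 between them.

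The 250 bases before a start that RefSeq lists were available for 8 members, all but Aloxe3. They are shown for Elovl4 and Abca12, of the first set, and for Smpd1 and Slc27a4, of the second, to set the upstream sequence of the 2 sets side by side, 5′ to 3′ in GRCm38.p6. Capitals mark CACCC, the core of the box bound by KLF factors, and CCAAT, on either strand.
Elovl4 (chr9:83806306-83806555, minus strand): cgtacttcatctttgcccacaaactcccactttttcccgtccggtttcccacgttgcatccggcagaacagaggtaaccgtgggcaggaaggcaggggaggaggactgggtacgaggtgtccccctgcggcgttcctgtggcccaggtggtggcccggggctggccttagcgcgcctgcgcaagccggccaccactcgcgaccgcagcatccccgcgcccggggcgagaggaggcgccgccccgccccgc
Abca12 (chr1:71414911-71415160, minus strand): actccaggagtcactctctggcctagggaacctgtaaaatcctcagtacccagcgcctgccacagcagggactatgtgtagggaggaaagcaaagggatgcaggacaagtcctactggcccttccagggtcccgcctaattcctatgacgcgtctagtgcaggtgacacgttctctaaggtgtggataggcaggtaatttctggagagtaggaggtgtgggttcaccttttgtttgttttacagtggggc
Smpd1 (chr7:105554110-105554359, plus strand): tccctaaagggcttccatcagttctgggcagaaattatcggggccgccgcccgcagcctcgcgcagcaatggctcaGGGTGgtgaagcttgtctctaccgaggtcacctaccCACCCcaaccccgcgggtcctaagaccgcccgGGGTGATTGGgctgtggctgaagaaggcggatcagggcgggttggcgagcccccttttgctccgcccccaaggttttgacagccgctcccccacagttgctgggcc
Slc27a4 (chr2:29802384-29802633, plus strand): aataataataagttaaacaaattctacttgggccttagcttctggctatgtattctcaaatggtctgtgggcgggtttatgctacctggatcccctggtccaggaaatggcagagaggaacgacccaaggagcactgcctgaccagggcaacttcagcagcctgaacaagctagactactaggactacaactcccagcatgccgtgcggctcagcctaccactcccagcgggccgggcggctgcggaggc

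CACCC was found 3 times and CCAAT once in the Smpd1 window, and neither in the other 3; 1 CACCC match and the CCAAT match stand side by side without overlap. Among the members not shown, CACCC occurred once each in the windows of Alox12b and Cers3 and 2 times in that of Pnpla1, which also had CCAAT. The Cers3 window (66743254 to 66743503) lay inside the gene span given above, and the Pnpla1 window (28858161 to 28858410) crossed the gene start. Of 32851 RefSeq windows of the same length, 52% held CACCC and 33.8% held CCAAT on either strand. The core of the grainyhead motif (AACCNGTT, in 1.79% of windows), the AP-1 motif (TGANTCA, 6.75%), TATAAA (12.4%) and CACGTG (6.02%) were searched on both strands and occurred in none of the 8. The G and C share was 66.0% for Alox12b, 69.6% for Elovl4 and 53.2% for Abca12, of the first set. It was 64.8% for Smpd1, 54.0% for Pnpla1 and 54.4% for Slc27a4, of the second. The 2 sets overlapped, and the median over all windows was 52.4%.

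For each member the genes with the most similar pattern were found by Pearson's r of log2(CPM + 1) over the 12 libraries. Alox12b ran closest to Lipn, an epidermal acid lipase (r = 0.99), Sbsn, encoding suprabasin (0.99), and Dmkn, encoding dermokine (0.99). Aloxe3 ran closest to Fcho1 (0.99), Sh3bp1 (0.99) and the kallikrein gene Klk11 (0.98), and Abca12 to Itpr3 (0.99), Adgrf2 (0.98) and Zbtb7b (0.98). The nearest to Elovl4 were Lrrc28 (0.97), Aadac (0.97) and Far2 (0.96), the last a fatty acyl-CoA reductase from the sebaceous gland list. Smpd1 had Mtfr1 (0.96) and Ormdl1 (0.96). Pnpla1 had Plcxd2 (0.99), Pak4 (0.98) and Arhgef4 (0.97), and Slc27a4 had Rassf10 (0.96), Stard5 (0.95) and Med22 (0.95). For Cers3, Perp, a desmosomal protein gene, came first (0.93), before Kctd1 (0.92) and Cwh43 (0.91). For Abhd5 these were Map4k3 (0.94), Ldah (0.92) and Klf3 (0.92). The mean of the members' standardised levels ran closest to Serpinb5 (0.96), Trex2 (0.95) and Perp (0.95). The libraries share their follicle content and epidermal share in all of these.

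The other genes of ceramide, fatty acid and barrier sterol metabolism were followed in a list of 60, of which 59 were in the table and tested. limma called 0 of the 59 in each of the 7 comparisons. At an unadjusted p below 0.05, 2 were higher and 8 lower after first exposure than in naive skin, against 10.1% and 6.32% of all genes. The counts were 3 and 1 in 2x (5.71% and 5.23% of all genes), 2 and 0 in 3x (4.83% and 2.12%) and 3 and 4 in bitten skin (6.42% and 4.74%). They were 5 and 1 for 2x against first exposure (6.49% and 9.39%), 11 and 1 for 3x against first exposure (8.2% and 9.58%) and 0 for 3x against 2x. The lowest p against naive skin after first exposure was that of Pnpla2, adipose triglyceride lipase, which needs the Abhd5 product for full activity. It was at 324 and 444 CPM in naive skin and 170, 103 and 177 CPM at first exposure, with no overlap (log2 fold change -1.37, SE 0.28, limma adjusted p = 0.0888). In 2x and 3x it overlapped naive skin, at 233 to 362 and 290 to 395 CPM. The adipocyte list means given beside Abhd5 moved with it, and their part was not tested. Elovl6, which elongates saturated fatty acids to stearate, was at 262 and 425 CPM in naive skin and at 169 to 200, 160 to 228 and 177 to 319 CPM in the 3 bitten groups (log2 fold change of bitten skin -0.75, SE 0.25, limma adjusted p = 0.33). The summed level of 12 sebaceous gland genes was 7017 and 10600 CPM in naive skin and 1312 to 5078 CPM in the bitten libraries, most of it from Scd1, a stearoyl-CoA desaturase (6656 and 10160 against 889 to 4681 CPM). The mean of their log2 levels overlapped, at 4.42 and 4.99 against 4.34 to 5.45. The part of sebaceous gland in the Elovl6 values was not tested. Fa2h, the fatty acid 2-hydroxylase, was at 16.0 and 72.6 CPM in naive skin and 71.2 to 161 CPM in 3x (1.44, SE 0.60, limma adjusted p = 0.704).

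The most abundant genes of that list were Psap, Klf4, Hmgcs1 and Pnpla2. Psap, the precursor of saposins that help break down glucosylceramide, was at 1021 and 832 CPM in naive skin and 1254 to 1479 CPM in 2x (log2 fold change 0.54, SE 0.28, limma adjusted p = 0.52). Klf4, a factor required for barrier formation, was at 843 and 1601 CPM in naive skin and 346, 284 and 818 CPM at first exposure (-1.43, SE 0.44, limma adjusted p = 0.168). The value of 818 CPM was that of replicate 3, nearly without hair follicle. Both 2x (746.5 to 1073 CPM) and 3x (852 to 1051 CPM) overlapped naive skin. The part of follicle in the Klf4 values was not tested. Hmgcs1, a cholesterol synthesis enzyme, was at 335 and 461 CPM in naive skin and 261 to 391 CPM in the first-exposure, 2x and 3x libraries. The list's median log2 fold change was 0.01, 0.10 and 0.21 against naive skin for first exposure, 2x and 3x, beside 0.10, 0.19 and 0.22 for the 9 members. In the 3 follicle-rich libraries 6 of the 59 genes were wholly higher than elsewhere and 6 wholly lower, against 14.7% and 6.96% of all genes tested. The higher ones included Tgm1, the transglutaminase that builds the cornified envelope (128 to 144 against 63.4 to 112 CPM). The lower ones included Sptlc3, a subunit of serine palmitoyltransferase (15.0 to 28.2 against 41.0 to 83.6 CPM).

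Neighbouring lipoxygenase genes showed both patterns within 1 gene family. Alox8 (chromosome 11, 69183885 to 69197843), next to Alox12b, encodes the mouse 8-lipoxygenase. It was at 83.5 and 107 CPM in first-exposure replicates 1 and 2 and 67.5 CPM in 2x replicate 1, and between 2.19 and 28.7 CPM in the other 9 libraries, the highest of which was naive replicate 1. In all 4 replicated groups the library richest in follicle had the most Alox8 and the least Alox12b. Of all genes tested, 8.91% were highest there in 4 groups and 3.45% lowest. Alox12e, the epidermal 12-lipoxygenase gene farther along the chromosome (70315610 to 70322720), went the way of Alox12b, with 49.6 to 82.0 CPM in the 3 follicle-rich libraries and 107 to 230 CPM elsewhere. Alox12, the platelet-type 12-lipoxygenase gene, was at 15.4 and 12.3 CPM in naive skin and 20.3, 21.1 and 21.3 CPM at first exposure, with no overlap (log2 fold change 0.57, SE 0.19, limma adjusted p = 0.19). In 2x and 3x it was at 12.4 to 17.0 CPM. The saliva immune library, of the same title series as first exposure, had 18.8 CPM, so the 4 libraries of that series were above the 8 of the other. The share of all genes with such a split was not taken.

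**Figure D5:**
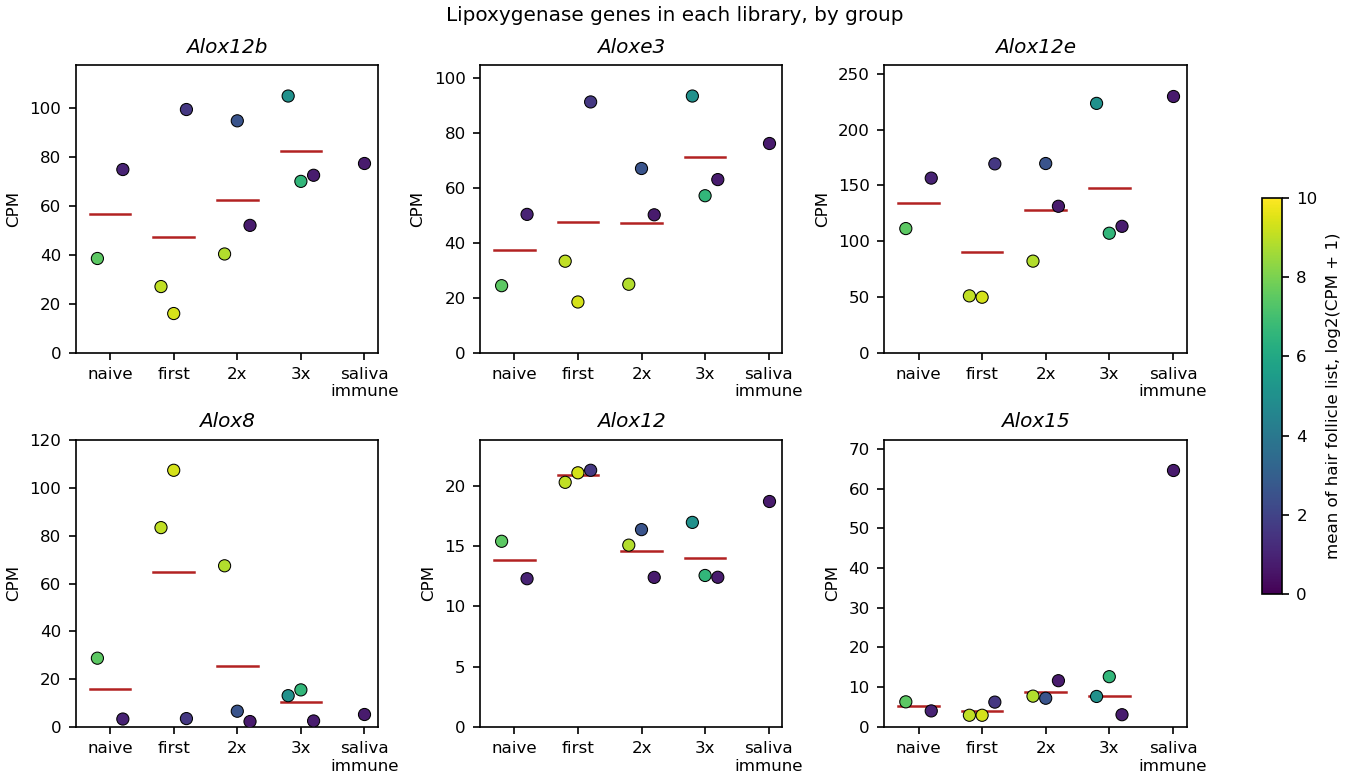
Level of 6 lipoxygenase genes (CPM, linear axis from 0) in the 12 libraries by group, with a red line at the mean of groups with 2 or 3 libraries; point colour gives the mean of the hair follicle list. Alox8 is high only in yellow, follicle-rich points (67.5 to 107 CPM), Alox12e is low in them, and Alox15 stands out in the saliva immune library at 64.6 CPM.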

How the data were processed

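Skin RNA was prepared by Qiagen RNeasy and libraries by an Illumina protocol, per the labels' protocols. Per the submitters' processing notes, STAR and Partek 8.0.19 were used with GRCm38.p6; counting program, strand setting and annotation are not stated there. The authors deposited CPM values for 25070 rows and 12 libraries, with 0.0001 added in every cell, which was left in place. Depth was estimated from the step on which low CPM values fall (within 0.02 reads for 73.5% to 79.4% of values between 0.01 and 3 CPM); as the rest were not whole, no count test was run. limma 3.58.1 in R 4.3.3 was run with a variance trend on log2(CPM + 1), for the 17064 genes that reached 1 CPM in 2 or more of 11 libraries, with 4 groups and 7 residual degrees of freedom; the saliva immune library is described only. A call was an adjusted p under 0.05 (Benjamini-Hochberg, across the 17064 genes); fold changes on this scale understate changes of low genes. Bitten skin is the mean of the 3 bitten group means. The test was checked on simulated data. The 7 comparisons were repeated with other pseudocounts, filters, scaling, covariates and libraries.

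The named genes were the 9 members, the genes nearest to each in pattern, and of the pathway list the 4 most abundant and those of lowest p against naive skin. Some genes that this rule names are not reported here. The lipoxygenases Alox8, Alox12e, Alox12 and Alox15 and the genes Smpd3, Degs2, Tgm1 and Sptlc3 were named after their values were seen. The members and lists were chosen with earlier results of these data known. Gene positions and upstream sequences are RefSeq's for GRCm38.p6. Tables were made in Python 3.11.15 with numpy 2.4.6 and pandas 2.3.3, figures with matplotlib 3.10.9.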

Additional observations from a re-analysis of the deposited data

Results flagged for a closer look

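The saliva immune library entered no comparison, and genes of the members and the pathway list are given here where it was at least 1.5 times the higher naive library. Among the members this was Aloxe3, at 76.1 CPM against 24.3 and 50.2 CPM in naive skin, a level inside the range of the 3x libraries. In the pathway list it was Degs2, the sphingolipid desaturase and hydroxylase of phytoceramide synthesis, at 4.41 CPM against at most 1.92 CPM in naive skin. That value was inside the range of each replicated bitten group. These ranges were 1.98 to 5.66 CPM at first exposure, 3.44 to 8.36 CPM in 2x and 1.32 to 11.3 CPM in 3x. Smpd3 and Alox15 stood above every other library. Smpd3, a neutral sphingomyelinase, was at 335 CPM, against at most 87.0 CPM in naive skin and at most 132 CPM in any of the other 11 libraries. Alox15, the 12/15-lipoxygenase known from macrophages and eosinophils, was at 64.6 CPM, against at most 6.28 CPM in naive skin and at most 12.6 CPM in the other 11. The macrophage list mean of this library, 7.75, was within the range of the 2x libraries (7.22 to 8.30). With 1 library none of this could be tested.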

How the results depend on the processing

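No paired analysis was possible because the labels carry no replicate number that links the groups. No member was called under any of the 9 alternatives that kept every library of the groups, and leaving out 1 library gave 1 call in all, Alox12b in 3x against first exposure (0 to 1 members called). Called genes of the pathway list ranged from 0 to 3 for first exposure against naive skin and from 0 to 7 for 3x against first exposure on leaving out 1 library, the upper ends without first-exposure replicate 3. The median log2 fold change of the members on leaving out 1 library ranged from -0.48 (without first-exposure replicate 3) to 0.31 for first exposure against naive skin and from -0.17 to 0.39 for 2x. Of the member fold changes under the other alternatives, 506 kept their sign and 16 did not, none of them called. With the hair follicle covariate these were Abca12 in first exposure (0.07) and bitten (0.0133) against naive skin, and Aloxe3 (-0.22) and Slc27a4 (0.0601) in 2x against first exposure. With the suprabasal keratinocyte covariate, Alox12b was at -0.00521 in 2x, -0.0831 in 3x and -0.21 in bitten against naive skin, and -0.0779 in 3x against 2x. With it Cers3 was at -0.00366 in 3x against naive skin, -0.12 in 3x against first exposure and -0.13 in 3x against 2x, Abca12 at -0.27 in 3x against naive skin and -0.16 against first exposure, and Elovl4 at -0.00484 in bitten skin and -0.22 in 3x against 2x. With median-of-ratios scaling Smpd1 in 3x against naive skin was -0.0117.

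Leaving out 1 library changed the sign of the following uncalled log2 fold changes, with lowest and highest values. In first exposure against naive skin these were Aloxe3 from -0.48 to 0.64, Cers3 from -0.0029 to 0.21, Elovl4 from -0.995 to 0.15 and Abca12 from -0.59 to 0.31. In 2x against naive skin these were Alox12b from -0.35 to 0.59, Aloxe3 from -0.20 to 0.82, Elovl4 from -0.17 to 0.97, Abca12 from -0.68 to 0.22, Smpd1 from -0.000596 to 0.39 and Pnpla1 from -0.0905 to 0.59. In 3x against naive skin these were Abca12 from -0.23 to 0.67, Smpd1 from -0.086 to 0.0687 and Pnpla1 from -0.0626 to 0.27. In bitten against naive skin these were Alox12b from -0.43 to 0.51, Aloxe3 from -0.0386 to 0.98, Elovl4 from -0.37 to 0.77 and Abca12 from -0.50 to 0.40. In 2x against first exposure these were Aloxe3 from -0.33 to 0.80, Cers3 from -0.10 to 0.37, Abca12 from -0.43 to 0.34 and Slc27a4 from -0.53 to 0.0905. In 3x against first exposure these were Cers3 from -0.00331 to 0.16. In 3x against 2x these were Cers3 from -0.28 to 0.19, Elovl4 from -0.11 to 0.54, Smpd1 from -0.38 to 0.0164 and Pnpla1 from -0.49 to 0.19. Depth did not limit the members, whose lowest value stood for 286 reads.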

Other observations

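The ratio of Aloxe3 to Alox12b CPM, examined after the values were seen, varied less than either gene. It was 0.633 and 0.672 in naive skin, 1.23, 1.15 and 0.918 in first-exposure skin, 0.617, 0.707 and 0.964 in 2x, 0.89, 0.816 and 0.869 in 3x and 0.982 in the saliva immune library. All first-exposure and all 3x libraries were above both naive libraries, and 2x was spread from below to above them. The libraries of title series 4 lay between 0.918 and 1.23 and those of series 6 between 0.617 and 0.964. For first exposure, group and title series cannot be told apart. The ratio of Slc27a4 to Smpd1 was 0.915 and 1.00 in naive skin and between 1.03 and 1.46 in every bitten library, though both genes were highest in the follicle-rich libraries. Ratios of Alox12b to Smpd1 and of Pnpla1 to Abhd5 were also formed and are not reported here. No test was run on any of these ratios, and no share over other gene pairs was taken.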
